A study of Rattus norvegicus with 18 samples.

Results

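The full-length transcriptome of rat hippocampus held 28268 isoforms, and 1362 of them (4.82%) came from a read longer than 4000 nt. The read length is the number that stands directly before the SUB label in each isoform identifier, and these 1362 reads, called long isoforms here, were chosen by that number alone. No TPM value entered the choice. The comparison class was the 24740 isoforms longer than 1000 and at most 4000 nt, which made up 87.5% of the transcriptome. In length classes written as a range, the lower bound is excluded and the upper one included. Long isoforms had a median read length of 4431 nt, with quartiles at 4170 and 4904 nt, and the longest read had 23400 nt. Of the 1362, 1059 were at most 5000 nt long, 182 had 5000 to 6000 nt, 81 had 6000 to 8000 nt and 40 were longer than 8000 nt.

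Long mRNAs are common in the brain, where many transcripts carry extended 3′ untranslated regions and many receptors, channels and scaffold proteins have long coding sequences. An RNA with more ribosomes sediments faster, so a sucrose gradient separates RNAs into a ribosome-free fraction, a monosome fraction with a single ribosome and a polysome fraction with several. Many mRNAs are also sorted along neurites, and the neuropil of the hippocampus, a layer of dendrites, axons and glial processes, differs from the layer of cell bodies, the somata, in its RNA content.

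Illumina RNA sequencing gave isoform levels in 12 libraries from male Sprague Dawley rats 4 weeks of age, with no treatment named in the labels. The groups, with 2 libraries each, were hippocampus from slices, the somata and neuropil layers of CA1 microdissected from such slices, and the fractions of a brain lysate without ribosomes, with a monosome and with polysomes, so the fractions and the other groups differ in tissue. They also differ in library kit, since the methods name a stranded mRNA kit for hippocampus and a stranded total RNA kit for the fractions, although the labels give polyA RNA for all 12. Levels and shares set side by side between fractions and the other groups are therefore a description, in which tissue and kit cannot be told apart. Levels are given as TPM, a relative transcript abundance that is corrected for transcript length and sums to the same total in each library. Sequencing depth is therefore unknown, and the amount of RNA in a fraction is not contained in the values. The sources do not say whether the 2 libraries of a group came from separate animals, so p-values measure the spread between these libraries, which may be technical. Bulk RNA cannot tell fewer cells of a type apart from less RNA per cell.

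Long isoforms rested on another kind of PacBio read than shorter ones. The identifier holds ccs, for a circular consensus sequence, in 676 long isoforms (49.6%) and in 17832 isoforms of 1000 to 4000 nt (72.1%), and sub, for a subread, in the others. The share of ccs fell from 53.5% at 4000 to 5000 nt to 30% above 8000 nt. The identifier ends in SUB1 or SUB2 in place of SUB0 in 181 long isoforms (13.3%) and in 1.20% of the comparison class, and in 24 of the 40 reads above 8000 nt; the sources used here do not state what this label means. Runs named LD4, whose reads had a median of 2897 nt, gave 84.0% of the long isoforms. However, 12 of the 40 longest came from runs named LD1, in which 80.6% of isoforms had at most 1000 nt.

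By TPM, long isoforms took a larger share than their 4.82% of isoform number in hippocampus and both CA1 layers, and a smaller one in the brain fractions. The position of the monosome and polysome fractions depended on how the share was taken. Without the 10 most abundant isoforms the monosome share was 4.84%. With TPM multiplied by read length the fractions held 8.97% to 12.5%. That measure gives longer isoforms more weight in every library, so the 4.82% is no baseline for it. Long isoforms held 6.35% and 7.22% of TPM in the hippocampus libraries, 6.50% and 6.58% in somata and 5.93% and 6.21% in neuropil. In brain their share was 2.38% and 2.57% in ribosome-free RNA, 4.40% and 4.42% in monosome and 4.51% and 4.47% in polysome. The ribosome-free libraries lay below every other library, and both libraries of each remaining brain fraction lay below all 6 hippocampal libraries. With 2 libraries against 2, the smallest two-sided p that an exact permutation test can give is 0.333, so these shares were compared by their overlap only. Group means were 6.79% ± 0.620 (SD, n = 2) in hippocampus, 6.54% ± 0.0565 in somata, 6.07% ± 0.201 in neuropil, 2.47% ± 0.130 in ribosome-free, 4.41% ± 0.00894 in monosome and 4.49% ± 0.0330 in polysome RNA.

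**Figure D1:**
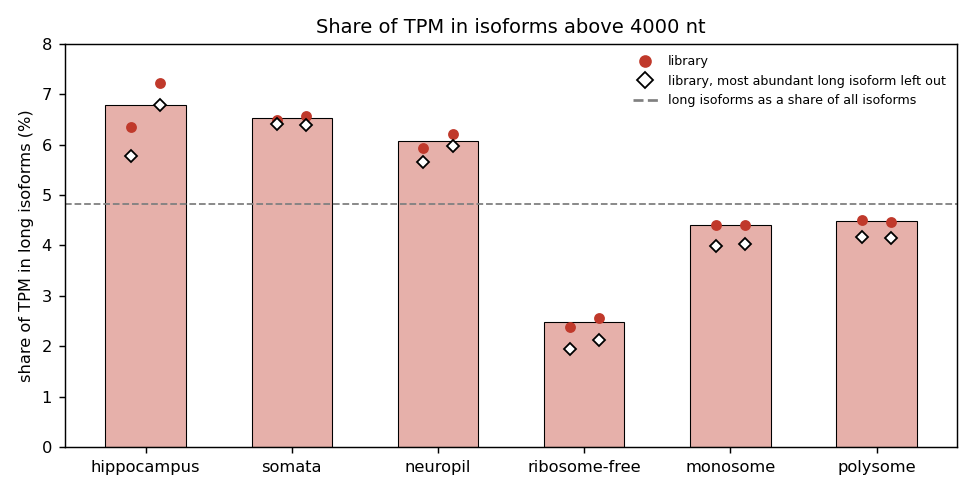
Share of TPM in isoforms above 4000 nt (y axis, %) in each of the 6 groups; bars are means of 2 libraries, red points single libraries, and white diamonds the same libraries with the most abundant long isoform, of 4171 nt, left out. The ribosome-free libraries, at 2.38% and 2.57%, sit below all others, and the dashed line marks the 4.82% of isoforms that are long.

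The share of a class depends on what else is in the library. Isoforms of at most 700 nt made up 30.4% and 30.2% of ribosome-free TPM, 17.6% and 18.4% in monosome and 8.25% and 9.44% in polysome. Among the TPM of isoforms above 1000 nt, long isoforms took 4.65% ± 0.191 (SD, n = 2) in ribosome-free RNA, 6.56% ± 0.0582 in monosome and 5.74% ± 0.0314 in polysome. Of the isoforms above 1000 nt 5.22% were long, so by this count the monosome and polysome shares exceeded the share of isoform number. The monosome libraries lay above both polysome libraries, and the ribosome-free libraries remained the lowest. The mean level of a long isoform was 0.886 times that of an isoform of 1000 to 4000 nt in ribosome-free RNA, 1.28 times in monosome and 1.11 times in polysome, and it was 1.64 times in hippocampus, 1.60 times in somata and 1.49 times in neuropil.

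A single isoform carried much of the long class in ribosome-free RNA. RSN_LD4.104_ccs_24657_4171_0_4171_4171_SUB0_pTNp_32, of 4171 nt, held 18.9% and 17.5% of the TPM of all long isoforms there, against 9.70% and 6.62% in hippocampus and 7.84% and 7.54% in polysome RNA. Its level was 4494 and 4497 TPM in ribosome-free, 4287 and 3982 TPM in monosome RNA and 3539 and 3369 TPM in polysome RNA. The 3 fractions did not overlap. By limma, with p-values adjusted over all isoforms tested, the log2 difference between polysome and ribosome-free RNA was -0.38 (SE 0.09, adjusted p = 0.0225). It was 0.79 with quantile normalization, the opposite direction, and the call was lost when either polysome or either ribosome-free library was left out (adjusted p from 0.0656 to 0.207). In hippocampus it stood at 6155 and 4779 TPM, in neuropil at 2879 and 2558 TPM and in somata at 953 and 1904 TPM. Neuropil lay above somata in these 4 libraries, but the difference did not pass the test (log2 difference 1.01, SE 0.36, adjusted p = 0.325). Without this isoform the long class held 2.03% of TPM in ribosome-free, 4.01% in monosome and 4.16% in polysome RNA.

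The other abundant long isoforms each had their own distribution. RNN_LD4.110_sub_142795_15406_5658_20267_14609_SUB0_uNAp_39, whose read spans 14609 nt, had 548 and 575 TPM in ribosome-free, 460 and 539 TPM in monosome RNA and 1769 and 1384 TPM in polysome RNA. Both polysome libraries lay above the other 4, and it rose in polysome against monosome (log2 difference 1.65, SE 0.15, adjusted p = 0.00289) and against ribosome-free RNA (1.48, SE 0.15, adjusted p = 0.00136). It was also abundant in hippocampus (1246 and 1038 TPM), somata (1593 and 1548 TPM) and neuropil (957 and 1255 TPM). RNN_LD4.109_ccs_153973_4069_0_4069_4069_SUB0_pNAp_24, of 4069 nt, had 131 and 146 TPM in ribosome-free, 320 and 333 TPM in monosome RNA and 315 and 311 TPM in polysome RNA. It rose in monosome and in polysome against ribosome-free RNA (log2 differences 1.23 and 1.17, SE 0.09 for both, adjusted p = 0.0011 and 0.000637), while polysome and monosome differed by -0.06 (SE 0.09, adjusted p = 0.689). RSN_LD1.101_sub_111606_10463_0_10463_10463_SUB1_pNAp_33, of 10463 nt, was lowest in monosome RNA, with 489 and 479 TPM in ribosome-free, 293 and 338 TPM in monosome RNA and 592 and 501 TPM in polysome RNA. Its fall from ribosome-free to monosome RNA (-0.62, SE 0.12, adjusted p = 0.015) was lost without monosome replicate 1 or either ribosome-free library (adjusted p from 0.0671 to 0.0733).

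The longest reads were not abundant. RSN_LD1.101_sub_94606_23400_0_23400_23400_SUB0_pNAp_27, of 23400 nt, had at most 9.68 TPM in any library and was listed at 0 in hippocampus replicate 1, neuropil replicate 2 and ribosome-free replicate 2. RNN_LD1.102_sub_122267_22605_2539_25144_22605_SUB1_pNAp_29, of 22605 nt, had 4.64 and 2.74 TPM in ribosome-free, 23.2 and 35.2 TPM in monosome RNA and 4.10 and 5.19 TPM in polysome RNA. Both hippocampus libraries listed it at 0. The monosome libraries stood alone at the top, and the rise in monosome against ribosome-free RNA was 2.69 on the log2 scale (SE 0.35, adjusted p = 0.00425). RNN_LD2.101_sub_24133_20032_0_20032_20032_SUB1_pNAp_24, of 20032 nt, had 9.61 and 15.5 TPM in the ribosome-free libraries and was listed at 0 in the other 10. Whether the read length of such reads equals the length of the transcript that was quantified was not tested.

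Long isoforms were listed above 0 TPM more often than shorter ones. In hippocampus 1061 long isoforms (77.9%) were above 0 in both libraries, against 59.2% of isoforms of 1000 to 4000 nt. In the compartments 965 (70.9%) were above 0 in all 4 libraries, against 47.3%, and in the fractions 874 (64.2%) in all 6, against 44.6%. In all 12 libraries together, 803 long isoforms (59.0%) were above 0 throughout, against 36.2%, and 67 (4.92%) were listed at 0 throughout, against 7.97%. Isoforms of at most 1000 nt lay between, with 44.9% above 0 in all 12. Reads that fit several isoforms are divided among them by estimation, so a listed 0 is not a count of 0 reads. At equal TPM a longer isoform collects more reads, and the part of this in detection was not tested.

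Their level was higher as well. The median over long isoforms of the mean TPM was 16.6 in hippocampus, 14.4 in the compartments and 8.60 in the fractions, against 4.89, 4.35 and 3.48 in the comparison class. A mean of at least 100 TPM in hippocampus was reached by 157 long isoforms (11.5%) and by 6.11% of the comparison class. When isoforms were grouped by their mean TPM in hippocampus, the difference in detection shrank but kept its direction in every bin. Averaged over these bins with the number of long isoforms as weights, detection in all libraries was 3.99 percentage points higher for long isoforms in the fractions and 6.25 points higher in the compartments. At 10 to 20 TPM in hippocampus, for example, 70.5% of long isoforms and 68.4% of the comparison class were above 0 in every fraction library, and 83.9% and 75.1% in every compartment library.

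**Figure D2:**
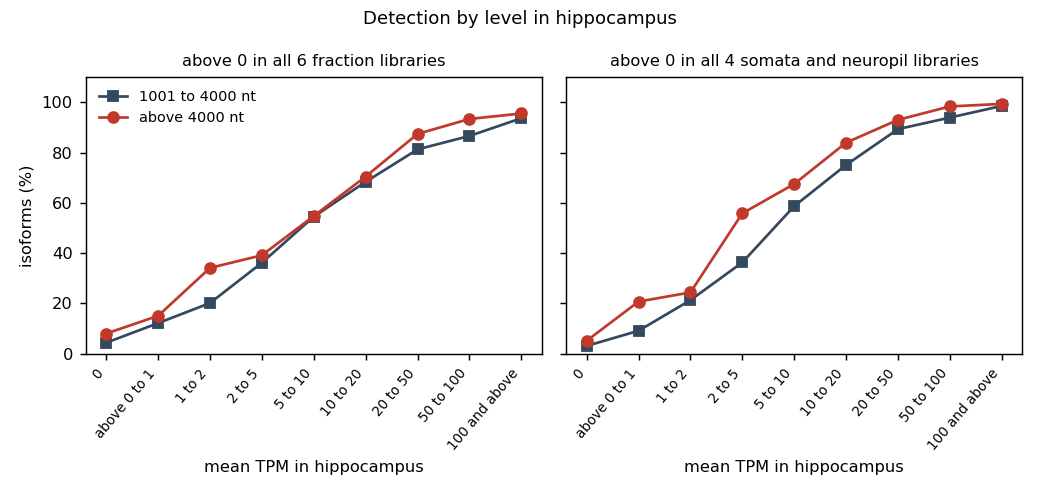
Share of isoforms listed above 0 TPM in every fraction library (left) and every somata and neuropil library (right), in % on the y axis, by mean TPM in hippocampus on the x axis; red circles are isoforms above 4000 nt and dark squares isoforms of 1000 to 4000 nt. The red line lies above the dark one in every bin, narrowly at 5 to 10 TPM in the fractions (54.8% and 54.5%) and widely at 2 to 5 TPM in the compartments (55.8% and 36.3%).

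Averaged over levels, replicates of long isoforms also lay closer together. The log2 difference between both libraries of a group had an SD that, averaged over bins of level, was 0.519 for long isoforms and 0.728 for the comparison class in polysome RNA, 0.592 and 0.754 in monosome, and 0.941 and 1.20 in ribosome-free RNA. In hippocampus, somata and neuropil it was 1.04, 0.855 and 1.25 for long isoforms and 1.15, 1.07 and 1.43 for the comparison class. At 100 TPM and above the direction turned in neuropil (0.812 for long isoforms, 0.656 for the comparison class) and in somata (0.253 and 0.231). At 1 to 2 TPM it turned in monosome RNA (1.32 and 1.29). The part that the larger number of reads of a longer isoform at equal TPM has in this spread was not tested. A smaller spread makes a difference of a given size easier to call. Its part in the counts of calls that follow was not tested.

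To ask how long isoforms are distributed over ribosome fractions, each pair of fractions was compared with limma on log2(TPM + 1), two-sided, over the 19667 isoforms that averaged 1 TPM or more, of which 1120 were long. A call means a p under 0.05 after adjustment over all of them.

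Long isoforms were richer in monosome than in ribosome-free RNA. Of the 1120, 548 (48.9%) were higher in monosome RNA, where 32.1% of all tested isoforms were, and 46 (4.11%) were higher in ribosome-free RNA, where 7.3% of all were. The median log2 difference was 1.06 for long isoforms, 0.70 for isoforms of 1000 to 4000 nt and 0.69 for all tested. It was 1.05 and 1.0 for long isoforms when the libraries of each replicate number were compared separately, against 0.68 and 0.62 in the comparison class. In 88 long isoforms a compared fraction was listed at 0 in both libraries, and without them the median was 1.01. Leaving out monosome replicate 1 or 2 lowered the share called higher to 32.1% and 32.2% of long isoforms, and to 17.0% and 18.8% of the comparison class in the same fits. The share called lower was 2.17% of long isoforms without monosome replicate 1, against 4.55%.

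At matched level the difference remained. Isoforms were grouped into 7 bins by mean TPM over the 6 libraries, from 1 to 2 TPM up to 100 TPM and above, and the median of the comparison class was subtracted from that of the long isoforms within each bin. The weighted average of these differences was 0.30 on the log2 scale, and 0.29 to 0.37 when each of the 4 pairs of 1 monosome and 1 ribosome-free library was taken alone. It was 0.07 at 1 to 2 TPM, 0.32 at 10 to 20 TPM, 0.67 at 100 TPM and above and 0.79 at 50 to 100 TPM, where the median was 1.49 for 105 long isoforms and 0.69 for 1361 of the comparison class. In that bin 82.9% of long isoforms were higher in monosome RNA, against 54.0% of the comparison class.

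Polysome against ribosome-free RNA gave a smaller difference between the classes. Here 503 long isoforms (44.9%) were higher in polysome RNA, where 34.1% of all tested were, and 70 (6.25%) were higher in ribosome-free RNA, where 11.1% of all were. The median log2 difference was 0.85 for long isoforms, 0.67 for the comparison class and 0.63 for all tested, and 0.83 for long isoforms without the 94 for which a compared fraction was listed at 0. At matched level the weighted difference was 0.10, with 0.05 to 0.19 in the 4 pairs of libraries. It was between -0.02 and 0.12 in the 5 bins below 50 TPM, 0.46 at 50 to 100 TPM and 0.35 at 100 TPM and above. The share of calls differed at high level, with 85.7% of long isoforms higher in polysome RNA at 50 to 100 TPM and 65.2% of the comparison class. Without polysome replicate 2 the share called higher was 29.8% of long isoforms and 22% of the comparison class. The share called lower was 3.39% and 3.32% of long isoforms without polysome replicate 1 and 2, against 6.97% of the comparison class in both fits. With isoforms above 5000 nt as the long class, the matched difference turned to -0.07.

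Between polysome and monosome RNA the median of long isoforms lay below that of the comparison class, while a smaller share of them was called in either direction. Only 59 long isoforms (5.27%) were higher in polysome RNA, where 11.6% of all tested were, and 105 (9.38%) were higher in monosome RNA, where 11.6% of all were. The median log2 difference was -0.11 for long isoforms, 0 for the comparison class and -0.02 for all tested. At matched level it was -0.15, with -0.21 to -0.16 in the 4 pairs of libraries, and long isoforms lay below the comparison class in 6 of the 7 bins, the exception being 1 to 2 TPM. At 10 to 20 TPM none of 214 long isoforms was higher in polysome RNA by an adjusted p under 0.05 in limma, and 2.80% were by an unadjusted p under 0.05, against 8.46% and 17.7% of the comparison class. Leaving out polysome or monosome replicate 1 or 2, each in turn, lowered the share called higher to between 0.891% and 1.63% and the share called lower to between 1.8% and 2.71%. In the comparison class the same 4 fits gave 3.92% to 6.54% and 3.56% to 4.45%.

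**Figure D3:**
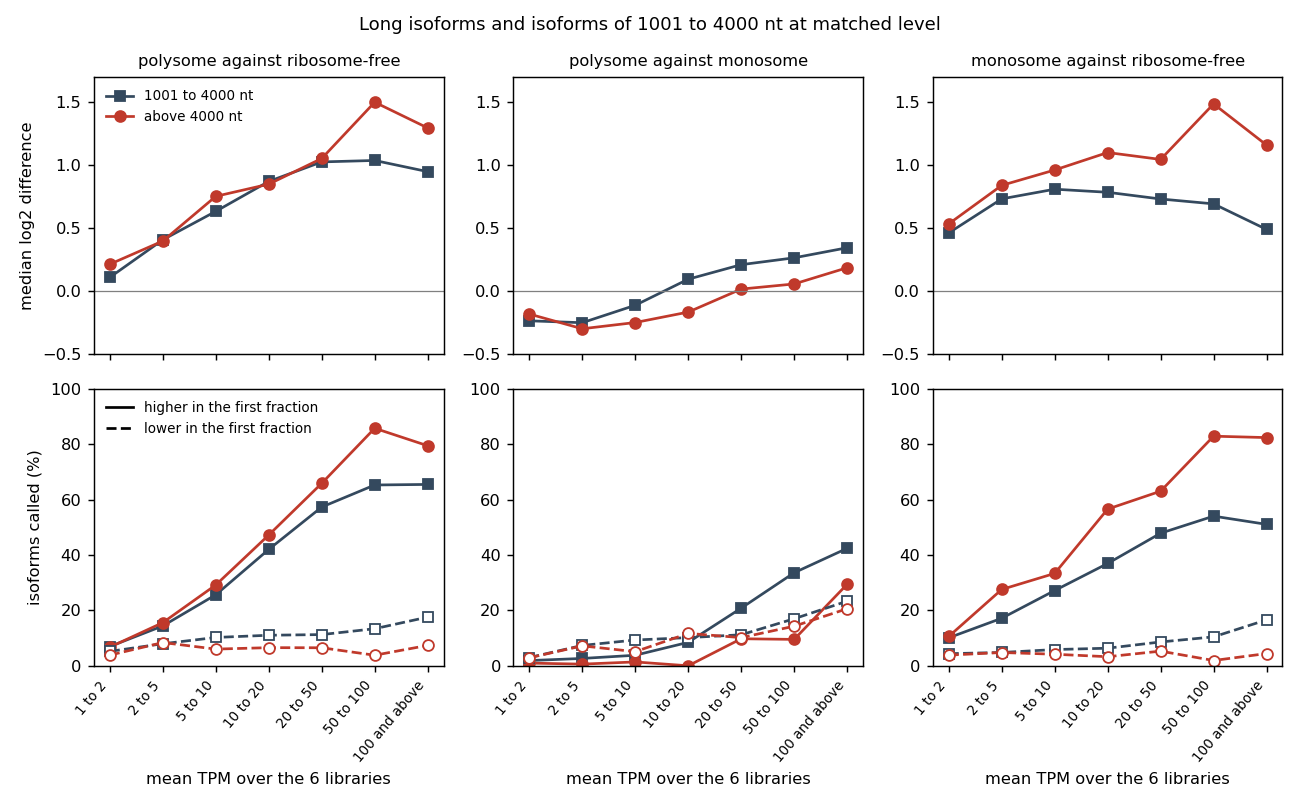
Median log2 difference (top) and share of isoforms called (bottom, %) by mean TPM over the 6 fraction libraries, for polysome against ribosome-free, polysome against monosome and monosome against ribosome-free RNA; red circles are isoforms above 4000 nt, dark squares isoforms of 1000 to 4000 nt, and dashed lines with open symbols the share lower in the fraction named first. At 50 to 100 TPM the medians for monosome against ribosome-free RNA are 1.49 and 0.69.

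Over all levels together, long isoforms peaked most often in monosome RNA, and the comparison class in polysome RNA. In 404 of 1120 long isoforms (36.1%) the monosome library was the highest of the 3 fractions in both replicates, in 308 (27.5%) the polysome library and in 100 (8.93%) the ribosome-free library, and the replicates disagreed in the other 308. Among the 16833 isoforms of 1000 to 4000 nt the shares were 26.2%, 31.3% and 12.7%. With these shares averaged over bins of level in the proportions of the long isoforms, they were 25.8%, 33.9% and 12.5%. The peak moved with level in both classes. At 100 TPM and above 54.4% of long isoforms peaked in polysome and 26.5% in monosome RNA, against 53.8% and 22.7% of the comparison class. From 20 TPM up long isoforms peaked most often in polysome RNA, and below 10 TPM the comparison class peaked most often in monosome RNA. In every bin a larger share of long isoforms than of the comparison class peaked in monosome RNA. Both libraries of the highest fraction lay above all 4 others in 373 long isoforms for monosome, 272 for polysome and 84 for ribosome-free RNA. The median long isoform had 41.3% and 40.4% of its TPM, summed over the 3 fractions of a replicate, in monosome RNA, against 36.6% and 36.1% in the comparison class. Its share in polysome RNA was 37.7% and 36.9%, against 37.0% and 36.8%. TPM is relative within a library, so these shares do not give the division of molecules over the fractions.

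How the libraries are scaled moved all isoforms together. With median ratios in place of TPM, the median log2 difference of all tested isoforms moved from 0.69 to 0.11 for monosome and from 0.63 to 0.11 for polysome against ribosome-free RNA. The long isoforms then stood 0.33 above that median for monosome, where they had stood 0.36 above it, and 0.18 for polysome, where they had stood 0.22 above it. Calls moved with the scale. With median ratios 28.3% of long isoforms were higher in monosome and 9.11% in ribosome-free RNA, against 15.1% and 14.7% of the comparison class. In the comparison of polysome with ribosome-free RNA the shares were 29.0% and 13.4%, against 21.5% and 16.4%. Quantile normalization gave 29.0% and 7.77% for monosome, against 15.5% and 13.7% of the comparison class, and 27.5% and 12.6% for polysome, against 20.7% and 16.2%.

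Values changed little across the limit of 4000 nt itself. The median log2 difference between monosome and ribosome-free RNA rose from 0.53 at 1000 to 2000 nt through 0.73 and 0.94 to 1.11 at 4000 to 5000 nt, and was then 0.82 at 5000 to 6000 nt, 0.92 at 6000 to 8000 nt and 0.81 above 8000 nt. For polysome against ribosome-free RNA it went from 0.62 at 1000 to 2000 nt to 0.88 at 4000 to 5000 nt and 0.56 above 8000 nt. Isoforms just inside the limit, of 4000 to 4100 nt (183 tested), had medians of 1.0 for monosome and 0.86 for polysome against ribosome-free RNA, and those just outside, of 3900 to 4000 nt (203 tested), had 1.15 and 0.85. Against isoforms of 2000 to 4000 nt alone, the matched differences of the long class were 0.18 and 0.04. In monosome against ribosome-free RNA the median was 1.09 for 558 long consensus reads and 1.01 for 562 long subreads. The 131 long isoforms with the label SUB1 or SUB2 had 0.76 and the other 989 had 1.08.

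**Figure D4:**
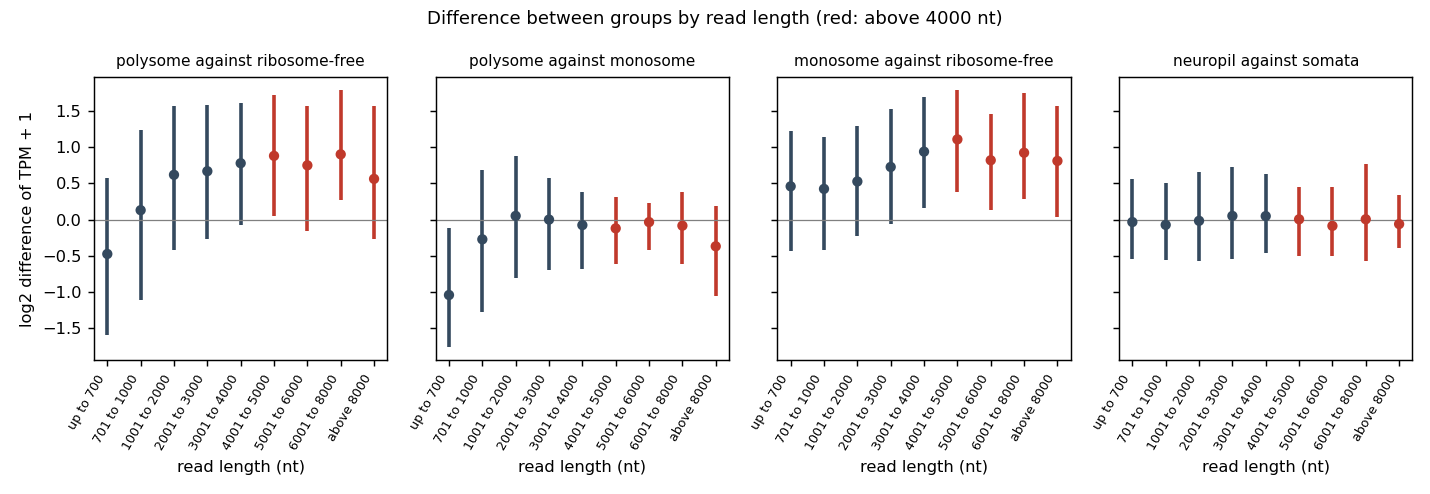
Log2 difference of TPM + 1 by read length class for the 3 pairs of fractions and for neuropil against somata; points are medians over tested isoforms, bars span the quartiles, and red marks the 4 classes above 4000 nt. For monosome against ribosome-free RNA the median is 0.53 at 1000 to 2000 nt and 1.11 at 4000 to 5000 nt.

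Single long isoforms differed by far more than the class. The 3 highest and 3 lowest calls of each comparison among long isoforms that averaged 10 TPM or more, without overlap of the libraries compared, are given here. RSN_LD3.102_ccs_146931_5100_0_5100_5100_SUB0_uNAp_43, of 5100 nt, was listed at 0 in both ribosome-free libraries and had 360 and 262 TPM in monosome RNA and 371 and 408 TPM in polysome RNA. Hippocampus, somata and neuropil held it at 133 to 441 TPM. RSN_LD3.107_ccs_145009_4185_0_4185_4185_SUB1_pNAp_36, of 4185 nt, was also listed at 0 in both ribosome-free libraries and had 116 and 97.6 TPM in monosome RNA and 149 and 151 TPM in polysome RNA. Both differed from ribosome-free RNA by limma (adjusted p = 9.12e-05 for polysome and 0.000174 for monosome, the same values for both isoforms), and the calls were kept under all alternatives run. RSN_LD4.114_ccs_10700_4154_0_4154_4154_SUB0_pNAp_47, of 4154 nt, was listed at 0 in ribosome-free RNA too, with 45.8 and 57.0 TPM in monosome RNA and 50.8 and 52.6 TPM in polysome RNA (adjusted p = 0.000316 for monosome).

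A few had their highest TPM in polysome RNA. RSN_LD4.106_ccs_6845_4258_0_4258_4258_SUB0_pNAp_26, of 4258 nt, had 0 and 7.63 TPM in monosome RNA and 128 and 121 TPM in polysome RNA, with both ribosome-free libraries listed at 0. It rose by 5.41 on the log2 scale in polysome against monosome RNA (SE 1.0, adjusted p = 0.0188), a call that was lost without either polysome or either ribosome-free library (adjusted p from 0.0586 to 0.135). RSN_LD4.107_sub_41654_5245_1311_6101_4790_SUB0_pNAp_182, of 4790 nt, had 14.8 and 6.81 TPM in ribosome-free, 64.3 and 43.8 TPM in monosome RNA and 351 and 324 TPM in polysome RNA. The 3 fractions did not overlap, and polysome exceeded monosome RNA by 2.64 (SE 0.37, adjusted p = 0.00875; 0.0689 to 0.0874 without monosome replicate 2 or either polysome library). RNN_LD4.116_sub_52148_5068_2211_7062_4851_SUB1_uNAp_31, of 4851 nt, was listed at 0 in ribosome-free RNA and had 11.3 and 12.1 TPM in monosome RNA and 65.7 and 56.2 TPM in polysome RNA. That difference of 2.29 (SE 0.23, adjusted p = 0.00339) was kept under all alternatives run.

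Others had their highest TPM in ribosome-free RNA. RNN_LD4.101_sub_153345_7796_4193_8427_4234_SUB0_pTNu_27, of 4234 nt, fell in steps from 180 and 171 TPM in ribosome-free through 40.9 and 43.9 TPM in monosome to 10.9 and 9.55 TPM in polysome RNA. Its log2 differences were -2.03 for monosome (SE 0.12, adjusted p = 0.000807) and -3.98 for polysome (SE 0.12, adjusted p = 0.000156) against ribosome-free RNA. RSN_LD3.101_ccs_27403_5201_0_5201_5201_SUB0_pTNp_16, of 5201 nt, had 60.5 and 73.2 TPM in ribosome-free and 0 and 1.80 TPM in monosome RNA, and was listed at 0 in polysome RNA (adjusted p = 0.0023 for monosome against ribosome-free RNA). RNN_LD4.105_ccs_43676_4033_0_4033_4033_SUB0_pTNp_22, of 4033 nt, had 71.2 and 48.4 TPM in ribosome-free, 2.50 and 1.20 TPM in monosome RNA and 0 and 1.03 TPM in polysome RNA, with a log2 difference of -5.39 for polysome against ribosome-free RNA (SE 0.49, adjusted p = 0.000986). RSN_LD4.113_sub_105038_8189_5329_9964_4635_SUB1_pTNp_31, of 4635 nt, had 24.0 and 22.6 TPM in ribosome-free, 0 and 4.18 TPM in monosome RNA and 5.62 and 9.74 TPM in polysome RNA, and its lower level in monosome RNA (adjusted p = 0.0254) was lost without either polysome or either ribosome-free library (0.0741 to 0.117).

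The 3 lowest calls between polysome and monosome RNA were of other isoforms. RNN_LD3.103_ccs_52514_6312_0_6312_6312_SUB0_pNAp_31, of 6312 nt, had 17.0 and 17.6 TPM in ribosome-free, 95.1 and 112 TPM in monosome RNA and 12.7 and 11.3 TPM in polysome RNA. The monosome libraries stood alone at the top, and polysome against monosome RNA was at -3.01 on the log2 scale (SE 0.15, adjusted p = 0.0015). RSN_LD4.103_ccs_22752_7886_0_7886_7886_SUB0_pTNp_36, of 7886 nt, had 26.0 and 15.4 TPM in ribosome-free, 57.4 and 31.1 TPM in monosome RNA and 2.37 and 0 TPM in polysome RNA (-4.56, SE 0.68, adjusted p = 0.0101; 0.0574 to 0.0756 without either monosome library). RSN_LD1.102_sub_149276_6404_11009_17413_6404_SUB1_pNAp_27, of 6404 nt, had 9.79 and 19.3 TPM in ribosome-free, 12.8 and 17.5 TPM in monosome RNA and 0.67 and 0 TPM in polysome RNA (-3.63, SE 0.46, adjusted p = 0.00667; 0.0531 and 0.0586 without monosome or polysome replicate 2). In the last isoform the monosome and ribosome-free libraries overlapped, and both polysome libraries lay below the other 4.

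Genes could be named for 29 long isoforms of 24 genes, through the study's own list that pairs a gene with the start of an isoform identifier. That list holds isoforms whose predicted proteins differ in a signal peptide, so it is no sample of all long isoforms, and some share a gene, such as 2 isoforms each of Gsn, Gabrg1, Nnt and Pde2a. Of the 29, 22 were tested between fractions. None was lower in polysome or monosome than in ribosome-free RNA, 13 were higher in polysome RNA and 12 in monosome RNA, with medians of 1.43 and 1.34 on the log2 scale, and none was called in either direction between polysome and monosome RNA. For comparison, 34.1% and 32.1% of all tested isoforms and 44.9% and 48.9% of long isoforms were called higher in polysome and in monosome than in ribosome-free RNA, and nothing particular to the paired genes is read from these counts. By an unadjusted p under 0.05 in limma, 0 were lower in polysome and 1 in monosome than in ribosome-free RNA, and 0 differed in either direction between polysome and monosome RNA.

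**Figure D5:**
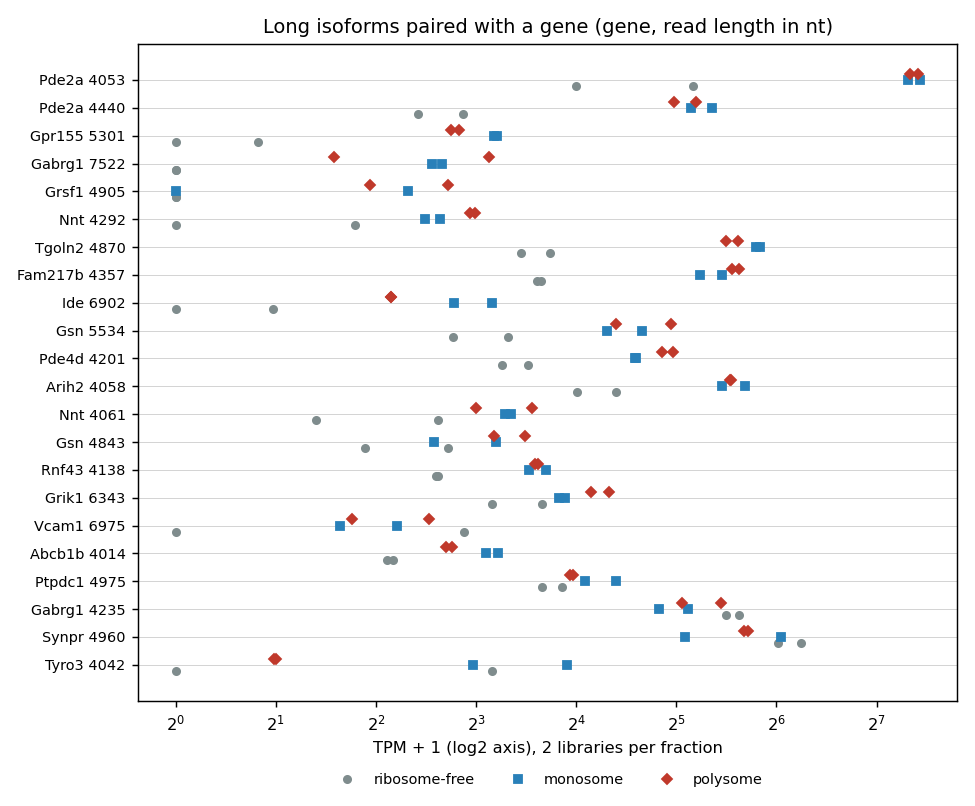
TPM + 1 (log2 axis) in the 2 libraries of the ribosome-free (grey circles), monosome (blue squares) and polysome (red diamonds) fractions for the 22 tested long isoforms that are paired with a gene, ordered by the polysome to ribosome-free difference; the number after each gene is the read length in nt. Grey circles lie left of all blue and red symbols for Pde2a, Tgoln2 and Fam217b, whereas for Synpr, Gabrg1 of 4235 nt and Tyro3 they do not.

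Among signalling enzymes, both isoforms of Pde2a, a phosphodiesterase that breaks down cyclic nucleotides and is itself stimulated by cGMP, were lower in ribosome-free than in polysome RNA. The isoform of 4053 nt had 14.9 and 34.9 TPM in ribosome-free, 158 and 172 TPM in monosome RNA and 160 and 169 TPM in polysome RNA, a polysome to ribosome-free difference of 2.79 (SE 0.38, adjusted p = 0.00337). The isoform of 4440 nt had 6.33 and 4.36, then 34.5 and 40.1, then 35.8 and 30.5 TPM in the same order (2.44, SE 0.22, adjusted p = 0.000981). Neither isoform's ribosome-free libraries overlapped with those of another fraction. Pde4d of 4201 nt, which encodes a cAMP-specific phosphodiesterase, had 8.56 and 10.5 TPM in ribosome-free, 23.0 and 23.2 TPM in monosome RNA and 30.3 and 28.0 TPM in polysome RNA (1.52, SE 0.17, adjusted p = 0.00178). Ptpdc1 of 4975 nt, a phosphatase gene, stayed between 11.6 and 20.1 TPM in all 6 libraries and was not called. Tyro3 of 4042 nt, a receptor tyrosine kinase, had 0 and 7.96 TPM in ribosome-free, 14.0 and 6.86 TPM in monosome RNA and 0.97 and 1.01 TPM in polysome RNA, also without a call. Clk3, a splicing-factor kinase, and Fgfr2, a growth factor receptor, did not reach a mean of 1 TPM in the fractions.

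Of 7 tested isoforms of membrane proteins, 4 were higher in polysome than in ribosome-free RNA, where 44.9% of all long isoforms were. Tgoln2 of 4870 nt, of the trans-Golgi network, had 9.89 and 12.3 TPM in ribosome-free, 56.1 and 54.5 TPM in monosome RNA and 44.1 and 47.9 TPM in polysome RNA (1.96, SE 0.15, adjusted p = 0.000653). Gpr155 of 5301 nt, a multi-pass membrane protein, had 0 and 0.77 TPM in ribosome-free, 8.07 and 8.26 TPM in monosome RNA and 5.73 and 6.11 TPM in polysome RNA (2.38, SE 0.40, adjusted p = 0.00694; 0.0514 without polysome replicate 2). Grik1 of 6343 nt, a kainate receptor subunit, had 7.96 and 11.6 TPM in ribosome-free, 13.8 and 13.2 TPM in monosome RNA and 19.1 and 16.7 TPM in polysome RNA (0.83, SE 0.24, adjusted p = 0.0397; 0.0701 to 0.173 without any 1 library other than ribosome-free replicate 2). In Tgoln2, Gpr155 and Grik1 the 3 fractions did not overlap.

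The GABA-A receptor subunit gene Gabrg1 had 2 long isoforms with different values. The isoform of 7522 nt was listed at 0 in both ribosome-free libraries and had 4.91 and 5.30 TPM in monosome RNA and 2 and 7.76 TPM in polysome RNA (adjusted p = 0.0263 for polysome against ribosome-free RNA; 0.0516 to 0.0967 without any 1 library other than polysome replicate 1). The isoform of 4235 nt had 44.0 and 48.5 TPM in ribosome-free, 33.7 and 27.4 TPM in monosome RNA and 42.7 and 32.2 TPM in polysome RNA, and its difference of -0.31 between polysome and ribosome-free RNA was not called (SE 0.19, adjusted p = 0.256). Synpr of 4960 nt, for the synaptic vesicle protein synaptoporin, had 74.9 and 63.6 TPM in ribosome-free, 33.1 and 64.8 TPM in monosome RNA and 50.1 and 51.5 TPM in polysome RNA, without a call (-0.44, SE 0.32, adjusted p = 0.324). Abcb1b of 4014 nt encodes a P-glycoprotein, a drug efflux pump. It had 3.33 and 3.49 TPM in ribosome-free, 7.58 and 8.33 TPM in monosome RNA and 5.50 and 5.76 TPM in polysome RNA. It rose in monosome against ribosome-free RNA (1.02, SE 0.26, adjusted p = 0.0326), a call lost without any 1 library other than ribosome-free replicate 2 (0.0528 to 0.108). Polysome against ribosome-free RNA was not called (0.59, SE 0.26, adjusted p = 0.129), and neither was polysome against monosome RNA (adjusted p = 0.31). Slc15a2, a peptide transporter, did not reach a mean of 1 TPM.

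In the ubiquitin and sorting group, Arih2 of 4058 nt, a ubiquitin ligase, had 20.1 and 15.1 TPM in ribosome-free, 42.9 and 50.5 TPM in monosome RNA and 45.6 and 45.5 TPM in polysome RNA (1.34, SE 0.18, adjusted p = 0.00333 for polysome against ribosome-free RNA; 0.0584 with quantile normalization). Rnf43 of 4138 nt, a membrane-bound ubiquitin ligase, had 5.07 and 5.15 TPM, then 11.99 and 10.5 TPM, then 11.3 and 11 TPM in the same order (0.99, SE 0.22, adjusted p = 0.0163; 0.0704 and 0.0764 without either polysome library). Both genes had ribosome-free libraries below the other 4. Stam2, an endosomal sorting factor, had 2.22 TPM in ribosome-free replicate 1 and was listed at 0 in the other 11 libraries.

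Of the mitochondrial and metabolic genes, Nnt, the transhydrogenase of the inner mitochondrial membrane, had 2 long isoforms with higher values outside ribosome-free RNA. That of 4292 nt had 2.45 and 0 TPM in ribosome-free, 4.61 and 5.23 TPM in monosome RNA and 6.68 and 6.95 TPM in polysome RNA (2.07, SE 0.64, adjusted p = 0.0487; 0.0995 to 0.189 without any 1 monosome or polysome library), and that of 4061 nt was not called (1.27, SE 0.49, adjusted p = 0.0885). Ide of 6902 nt, for insulin-degrading enzyme, had 0 and 0.96 TPM, then 5.89 and 7.91 TPM, then 3.44 and 3.43 TPM (1.66, SE 0.46, adjusted p = 0.0355; 0.0595 to 0.132 without any 1 library other than ribosome-free replicate 2). Grsf1 of 4905 nt, a mitochondrial RNA-binding protein, was listed at 0 in ribosome-free RNA and had 2.83 and 5.59 TPM in polysome RNA without a call, and Nceh1, a cholesterol ester hydrolase, did not reach a mean of 1 TPM.

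For genes of glia, vessels and the extracellular space, Gsn of 5534 nt, gelsolin, an actin-severing protein, had 5.83 and 8.99 TPM in ribosome-free, 24.3 and 18.8 TPM in monosome RNA and 20.01 and 29.8 TPM in polysome RNA (1.62, SE 0.31, adjusted p = 0.0105; 0.052 and 0.074 without polysome replicate 2 or ribosome-free replicate 1). Gsn of 4843 nt and Vcam1 of 6975 nt, a vascular adhesion protein, were not called (1.03 and 0.70, SE 0.42 and 1.0). Fam217b of 4357 nt had 11.5 and 11.2 TPM in ribosome-free, 43.0 and 36.7 TPM in monosome RNA and 46.1 and 48.3 TPM in polysome RNA (1.96, SE 0.14, adjusted p = 0.000553). The calls of Fam217b, Tgoln2, Pde4d and both isoforms of Pde2a for polysome against ribosome-free RNA were kept under all alternatives run, whereas those of Grik1, Ide, Nnt of 4292 nt and Rnf43 were also lost with median ratios and with quantile normalization, and that of Gsn of 5534 nt with quantile normalization.

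The same list paired 10 of these genes with 15 isoforms of at most 4000 nt, and both could be compared in 8 genes. Averaged per gene, the polysome to ribosome-free difference of the long isoform exceeded that of the shorter ones in 5 genes and fell short in 3, with a median gap of 0.63 and a range from -2.56 in Arih2 to 4.76 in Grik1. The shorter Grik1 isoform, of 3065 nt, had 24.0 and 17.3 TPM in ribosome-free RNA, was listed at 0 in both monosome libraries and had 0.95 and 0 TPM in polysome RNA, whereas the long isoform lay between 7.96 and 19.1 TPM in all 6. In Synpr the order was the opposite, since the isoform of 3427 nt had 8.20 and 30.8 TPM in ribosome-free and 70.1 and 74.4 TPM in polysome RNA (2.10, SE 0.57, adjusted p = 0.0337). Arih2 of 2401 nt was listed at 0 in ribosome-free RNA and had 17.7 and 10.8 TPM in polysome RNA. These gaps within a gene were not tested, and isoforms of a gene share sequence, so the estimation of one affects the other.

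Between neuropil and somata no long isoform was called in the main fit. From these layers the paper reports isoforms significantly enriched on each side, among neuronal genes with several isoforms. Whether any of those is long was not examined. The comparison of the 2 CA1 layers used limma over 20393 isoforms in 4 libraries. Of these isoforms 1158 were long, and 0% of all tested isoforms passed an adjusted p of 0.05 in either direction (smallest adjusted p = 0.179). In simulated data for this comparison, only 101 of 200 isoforms shifted by 3 on the log2 scale were recovered. A lack of calls is therefore no measure of a lack of difference. By an unadjusted p under 0.05, 94 long isoforms (8.12%) were higher in neuropil, where 7.57% of all tested were, and 100 (8.64%) were higher in somata, where 7.26% of all were. In a setting added after seeing the data, which joined a pseudocount of 0.1 to a prior variance held constant, 4 long isoforms were called higher in neuropil and 12 higher in somata, 0.345% and 1.04% of those tested, against 1.04% and 1.24% of the comparison class. The median log2 difference was -0.01 for long isoforms, 0.02 for the comparison class and 0.01 for all tested, and 572 of 1158 (49.4%) lay above 0. At matched level the weighted difference was 0.0066, with 0.00017 to 0.0144 in the 4 pairs of libraries and -0.0425 to 0.0102 when 1 library was left out, so its direction turned. Only at 100 TPM and above did the medians lie apart by more than 0.05, with -0.23 for 144 long isoforms and -0.14 for the comparison class.

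The summed TPM of marker isoforms differed between these layers. Only isoforms that the study's signal-peptide lists pair with a gene could be used, 19 for glia and vessels and 23 for neurons. A sum therefore leaves out any other isoforms of these genes and is not the level of the genes. Isoforms of 15 genes of glia and vessels summed to 952 and 1093 TPM in neuropil and 534 and 562 TPM in somata, with Csf1r, Tie1 and Slc7a10 among those at 0 in all 4 libraries, and isoforms of 14 neuronal genes summed to 639 and 835 TPM in neuropil and 1188 and 1089 TPM in somata, with none at 0 throughout. Neither list overlapped between the layers, and the part of cell composition in the values of long isoforms was not tested.

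Long isoforms of smallest p between the layers are given as examples without a call. RSN_LD4.115_ccs_56701_5062_0_5062_5062_SUB0_pTNp_26, of 5062 nt, had 861 and 828 TPM in neuropil and 367 and 357 TPM in somata (log2 difference 1.22, SE 0.10, adjusted p = 0.179). The isoform of 4154 nt that was listed at 0 in ribosome-free RNA had 129 and 153 TPM in neuropil and 31.2 and 30.0 TPM in somata (2.17, SE 0.17, adjusted p = 0.179). RNN_LD4.112_sub_5383_6154_0_4386_4386_SUB0_uNAp_32, of 4386 nt, had 94.0 and 90.0 TPM in neuropil and 41.0 and 41.5 TPM in somata (1.14, SE 0.15, adjusted p = 0.179). In the other direction, RSN_LD4.112_sub_65255_13508_11867_19085_7218_SUB0_uNAp_62, of 7218 nt, had 329 and 412 TPM in neuropil and 885 and 820 TPM in somata (-1.21, SE 0.15, adjusted p = 0.179). RSN_LD3.108_sub_60242_4175_0_4175_4175_SUB0_pNAp_29, of 4175 nt, had 49.0 and 53.6 TPM in neuropil and 116 and 123 TPM in somata (-1.21, SE 0.15, adjusted p = 0.179), while hippocampus held it at 0.72 and 0 TPM. RSN_LD3.104_sub_103888_4064_0_4064_4064_SUB0_pTNp_22, of 4064 nt, was listed at 0 in both neuropil libraries and had 36.4 and 23.8 TPM in somata. In each of these 6 the layers did not overlap.

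Among the 24 paired long isoforms tested here, 12 had a log2 difference above 0, with a median of 0.01. Gsn of 5534 nt had the smallest unadjusted p of them, with 48.3 and 35.2 TPM in neuropil and 8.84 and 10.3 TPM in somata (2.0, SE 0.30, adjusted p = 0.179). Gabrg1 of 4235 nt had 162 and 148 TPM in neuropil and 107 and 106 TPM in somata (0.53, SE 0.13, adjusted p = 0.225). Pde2a of 4440 nt had 46.0 and 31.3 TPM in neuropil and 74.5 and 68.1 TPM in somata (-0.89, SE 0.25, adjusted p = 0.26). Ptpdc1 of 4975 nt had 34.6 and 41.8 TPM in neuropil and 63.0 and 63.4 TPM in somata (-0.72, SE 0.19, adjusted p = 0.246). The layers did not overlap in these 4 isoforms, yet none passed the adjustment over all isoforms.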

How the data were processed

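The authors built the full-length transcriptome (FLT) from PacBio reads of rat hippocampal cDNA that had been normalized with a duplex-specific nuclease and split into size sections, so the number of isoforms per length class reflects that preparation. They trimmed Illumina reads with flexbar and estimated isoform levels against the FLT with RSEM through Bowtie 2; the submitters' processing notes name RSEM, TopHat2 and the rn6 build, without versions. The deposited values are TPM, in 3 tables. Tests were run only within a table, while shares of TPM and levels in hippocampus were also set beside values of the other tables, without a test. Hippocampus, somata and neuropil are labelled mRNA libraries; the fractions came from polysome profiling of brain, with a total RNA kit per the methods; 6 ribosome footprinting libraries were not analysed here. Depth is unknown, so no counting interval is given.

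Length classes were read from the identifiers. Isoforms averaging 1 TPM or more over a table's libraries were tested on log2(TPM + 1) with limma 3.58.1 (lmFit, eBayes with trend) in R 4.3.3, two-sided, with Benjamini-Hochberg adjustment over all isoforms tested and a threshold of 0.05. One fit covered the 6 fraction libraries and another the 4 compartment libraries. Fold changes on this scale understate those of low isoforms. Comparisons at matched level used 7 bins of mean TPM and carry no test, because isoforms are not replicates. The fit was tested on simulated data, with 200 isoforms shifted by 3 on the log2 scale. Between polysome and ribosome-free RNA 162 were recovered beside 18 false calls, and between neuropil and somata 101 beside 4 false calls. Without a shift there were 0 false calls in both, and 5.72% and 6.18% of isoforms had a p under 0.05 by limma. The shifted isoforms averaged 10 TPM or more, so recovery below that level was not tested. Summaries used Python 3.11.15, pandas 2.3.3 and numpy 2.4.6.

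Named isoforms were those the study's signal-peptide lists pair with a gene, with the shorter isoforms of the same genes; the 3 highest and 3 lowest calls per comparison among those that averaged 10 TPM or more without overlap, or the 3 of smallest p each way where none was called; the 5 most abundant long isoforms of each table; and the 3 longest. Of the most abundant, the text gives 4 in full. One gene that the rule covers is not reported here; the others are. The members, lists and tests were chosen with earlier results of these data known. Alternatives numbered 80 planned and 7 chosen after seeing the data.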

Additional observations from a re-analysis of the deposited data

How the results depend on the processing

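With 2 libraries per group of unknown depth, calls depend on single libraries, and of 86 called values of named isoforms 44 were kept under all alternatives and 42 were lost under at least 1. Polysome against ribosome-free RNA of the 5062-nt isoform turned to -0.27 with median ratios and -0.14 with quantile normalization, that of the 4171-nt isoform to 0.79 with quantile normalization, and monosome against ribosome-free RNA of the 4340-nt isoform to -0.22 with median ratios. Where no cause follows from the setting, the cause was not tested.

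The share of long isoforms called higher and lower was 29% and 13.4% (median ratios) and 27.5% and 12.6% (quantile) for polysome against ribosome-free RNA, and 28.3% and 9.11%, and 29% and 7.77%, for monosome against ribosome-free RNA. Higher in polysome than monosome were 2.41% (constant prior variance), 3.04% (quantile), 3.45% (without the 10 most abundant isoforms) and 8.26% (above 5000 nt). Neuropil against somata gave 0.345% and 1.04% with a pseudocount of 0.1 and a constant prior variance. Leaving out 1 library gave 29.8% to 45.2% higher and 3.32% to 5.6% lower (polysome against ribosome-free), 0.891% to 7.11% and 1.8% to 13.1% (polysome against monosome) and 32.1% to 49.6% and 2.17% to 3.24% (monosome against ribosome-free).

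The sources do not say whether libraries of equal replicate number share a lysate or slices, and the main fits did not pair them. Deviations of libraries with equal replicate number correlated at 0.00218, -0.00994, 0.00258 and 0.0328 in the 4 comparisons. Such values cannot tell whether the libraries were paired by design. With a replicate block, 3.48% were higher and 6.07% lower in polysome than monosome RNA.

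The matched difference for polysome against ribosome-free RNA was -0.0703 above 5000 nt and 0.0355 against 2000 to 4000 nt (0.0597 to 0.138 leaving out 1 library). For polysome against monosome it was -0.195 (mean of at least 5 TPM), -0.124 (no filter) and -0.116 (against 2000 to 4000 nt), and -0.188 to -0.142 leaving out 1 library. For monosome against ribosome-free it was 0.361 (at least 5 TPM), 0.354 (only both fractions), 0.252 (pseudocount 5), 0.356 (above 3500 nt), 0.153 (above 5000 nt), 0.184 (against 2000 to 4000 nt), 0.363 (only consensus reads) and 0.333 (only SUB0), and 0.295 to 0.378 leaving out 1 library. For neuropil against somata, in the same order of kinds, it was -0.0014 (no filter), -0.0032 (pseudocount 5), -0.0036 (quantile), 0.0133, -0.033, -0.0125 and 0.0164 (only SUB0), and -0.0425 to 0.0102 leaving out 1 library.

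The TPM share, in the order hippocampus, somata, neuropil, ribosome-free, monosome and polysome, was 15.7%, 15.7%, 14.6%, 8.97%, 12.5% and 12.2% with TPM multiplied by read length, 12.8%, 12.4%, 12%, 4.5%, 8.79% and 8.68% above 3500 nt, and 1.64%, 1.8%, 1.62%, 0.644%, 1.15% and 1.2% above 5000 nt. From somata on it was 6.82%, 6.41%, 3.1%, 4.84% and 4.59% without the 10 most abundant isoforms and 6.4%, 5.82%, 2.03%, 4.01% and 4.16% without the 4171-nt isoform. Single replicates gave 6.35% to 7.22%, 6.5% to 6.58%, 5.93% to 6.21%, 2.38% to 2.57%, 4.4% to 4.42% and 4.47% to 4.51%.

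Detection in hippocampus was 77.2% above 0.1 TPM. Above 1 TPM, in at least 1 library, above 3500 nt and above 5000 nt it was 74.4%, 87.2%, 72.7% and 74.3% in hippocampus, 57.6%, 91.8%, 56.9% and 58.7% in the fractions and 68.1%, 90.7%, 63.7% and 67.3% in the compartments. With 1 replicate left out it was 82.2% to 83%, 69% to 69.7% and 74.6% to 76.6%.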

Other observations

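The other abundant long isoforms covered by the naming rule had these values. RSN_LD4.105_sub_15951_7789_5610_9950_4340_SUB0_uNAp_33, of 4340 nt, had 381 and 317 TPM in ribosome-free, 524 and 456 TPM in monosome RNA and 816 and 922 TPM in polysome RNA. RNN_LD2.105_ccs_162913_5869_0_5869_5869_SUB1_pTNp_41, of 5869 nt, had 169 and 212 TPM in ribosome-free, 435 and 480 TPM in monosome RNA and 697 and 637 TPM in polysome RNA, and 1088 and 1117 TPM in neuropil against 692 and 647 TPM in somata. In both isoforms the 3 fractions did not overlap. RSN_LD4.102_sub_64579_7282_3624_8926_5302_SUB1_pTNp_21, of 5302 nt, had 288 and 309 TPM in ribosome-free, 437 and 564 TPM in monosome RNA and 331 and 322 TPM in polysome RNA. RSN_LD4.101_ccs_73862_4354_0_4354_4354_SUB0_pNAp_91, of 4354 nt, had 121 and 114 TPM in ribosome-free, 191 and 194 TPM in monosome RNA and 220 and 211 TPM in polysome RNA, with 880 and 979 TPM in hippocampus. RNN_LD1.102_sub_83109_5830_1557_7387_5830_SUB1_uNAp_42, of 5830 nt, had 342 and 354 TPM in ribosome-free, 711 and 554 TPM in monosome RNA and 634 and 709 TPM in polysome RNA.

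The sums of both marker lists rose from ribosome-free through monosome to polysome RNA. Of all tested isoforms, 67.3% lay above 0 on the log2 scale for polysome and 72.5% for monosome against ribosome-free RNA. Nothing particular to the markers is therefore read from these sums. Glial and vascular isoforms summed to 194 to 284 TPM in ribosome-free, 471 to 487 TPM in monosome RNA and 645 to 679 TPM in polysome RNA, and neuronal isoforms to 321 to 379, 803 to 853 and 925 to 928 TPM.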
